A study of Mus musculus with 4 samples.

Results

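Hair matrix transcription factor genes were followed here through the 4 dWAT libraries of the study. The 9 genes, Foxn1, Msx1, Msx2, Dlx3, Gata3, Lef1, Ovol1, Foxe1 and Sox21, were taken by name as regulators of hair differentiation. The rule uses no measured value, though it was set with earlier results of these data known. All 9 were found among the 22913 genes in the files. dWAT is the fat layer under the dermis that surrounds the lower ends of hair follicles (HFs), and it was microdissected from the skin of C57BL/6 mice. The libraries are YTD and OTD (young and old mice in telogen, the resting phase of the HF) and YAD and OAD (young and old mice in anagen, the growth phase, induced by depilation), with 1 library for each. Old mice were 18 months and young mice 2 months old by the treatment protocol in the labels. The age tags of 2 libraries go against it, since YTD is tagged 18 months and OAD is tagged 2 months. Groups follow the titles and descriptions. If the tags were right, both telogen libraries would be old and both anagen libraries young, and age and phase could not be told apart. The methods list many mice per group for each library, so a library stands for pooled tissue, and the day after depilation on which anagen dWAT was taken is not given for the sequenced mice in the sources used here.

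The hair matrix is the pool of dividing epithelial cells in the bulb of an anagen HF, wrapped around the dermal papilla and set in the dWAT. Its daughters become the hair shaft (medulla, cortex and cuticle) and the inner root sheath, under Wnt, BMP and Notch signals. In telogen the bulb has regressed and the matrix is absent. Foxn1 is the forkhead factor that is lost in nude mice, whose hair shafts fail to emerge. Msx1 and Msx2 are homeobox factors of the BMP response, and Msx2 acts upstream of Foxn1 in the shaft. Dlx3 is a homeobox factor needed for shaft and root sheath formation, Gata3 a zinc finger factor of the inner root sheath, and Lef1 the DNA-binding partner of beta-catenin in Wnt signalling. Ovol1 is a zinc finger repressor that ends proliferation of epithelial progenitors, Foxe1 a forkhead factor of the follicle downstream of hedgehog signals, and Sox21 a factor of the hair cuticle.

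The genes lie on 8 chromosomes of GRCm38. Foxn1 (ENSMUSG00000002057) is on chromosome 11 from 78357577 to 78386558 and Dlx3 (ENSMUSG00000001510) on chromosome 11 from 95120119 to 95125296. Msx1 (ENSMUSG00000048450) is on chromosome 5 from 37820485 to 37824583 and Msx2 (ENSMUSG00000021469) on chromosome 13 from 53466884 to 53473074. Gata3 (ENSMUSG00000015619) is on chromosome 2 from 9857078 to 9890034, Lef1 (ENSMUSG00000027985) on chromosome 3 from 131110471 to 131224356 and Ovol1 (ENSMUSG00000024922) on chromosome 19 from 5549137 to 5560575. Foxe1 (ENSMUSG00000070990), on chromosome 4 from 46343609 to 46346412, and Sox21 (ENSMUSG00000061517), on chromosome 14 from 118233232 to 118237030, have a single exon each. In the GENCODE annotation, Gata3, Lef1, Ovol1, Foxe1 and Sox21 overlap genes on the opposite strand. Whether the counting used strand is not given in the sources used here, so reads of such a pair may not have been separated. Of these partners 4930412O13Rik, opposite Gata3, was measured, with at most 1.31 FPKM, and the others were not analysed here. Gata3 also overlaps 9230102O04Rik on its own strand, which had at most 1.74 FPKM. Lef1 overlaps Gm42449 on its own strand over 2258 bases, and Gm42449 was not analysed here.

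Promoter stretches of 3 genes are shown because their genes mark the range of the patterns described below: Foxn1 and Lef1, whose profiles over the libraries lay closest to each other, and Msx1, which stood apart. Each is the 250 bases before a RefSeq start (GRCm38.p6), 5′ to 3′ on the strand of the gene, and none of the bases shown is exonic in GENCODE. Capitals mark CTTTGA, the core that LEF1 and TCF factors bind, read on both strands (TCAAAG on the other).
Foxn1, chr11:78386609-78386858, minus strand: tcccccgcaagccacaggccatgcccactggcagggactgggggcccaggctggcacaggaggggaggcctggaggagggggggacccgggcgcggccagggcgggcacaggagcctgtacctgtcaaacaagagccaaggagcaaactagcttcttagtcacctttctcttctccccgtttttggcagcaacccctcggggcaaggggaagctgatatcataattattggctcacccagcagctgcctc
Msx1, chr5:37824586-37824835, minus strand: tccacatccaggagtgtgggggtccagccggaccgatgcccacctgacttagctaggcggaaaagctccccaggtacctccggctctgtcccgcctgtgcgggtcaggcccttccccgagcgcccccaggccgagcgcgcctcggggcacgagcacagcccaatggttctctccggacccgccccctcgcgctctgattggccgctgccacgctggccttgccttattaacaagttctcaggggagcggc
Lef1, chr3:131156044-131156293, plus strand, at a start inside the gene: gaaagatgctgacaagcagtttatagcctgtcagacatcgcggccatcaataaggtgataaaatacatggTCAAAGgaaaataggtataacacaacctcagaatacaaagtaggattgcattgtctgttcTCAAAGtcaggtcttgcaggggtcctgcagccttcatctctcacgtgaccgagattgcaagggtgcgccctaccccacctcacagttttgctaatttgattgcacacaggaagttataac

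RefSeq windows were at hand for 6 of the 9 genes, with 9 windows in all. The core was found in 2 of these windows. In the Lef1 window shown above, at a start inside the gene, it lies 180 and 120 bases before the start. In the Sox21 window it lies 114 bases before the start. Windows at other Lef1 starts held no core, namely chr3:131110047-131110296 and chr3:131110073-131110322 near the 5′ end of the gene, and chr3:131112541-131112790. Of all 32851 windows of this length, 13.8% hold the core. TAATTG, a core that MSX and DLX homeobox factors bind, and AGATAA, a core of GATA factors, were in none of the 9 windows, against 7.17% and 9.99% of all windows. None of the 3 motifs contains another, on either strand. G and C made up 63.2% of the Foxn1 window, 68% of the Msx1 window and 44.8% of the Lef1 window shown, beside a median of 52.4% over all windows. Dlx3, Ovol1 and Foxe1 are named only. These matches describe letters in a short window and say nothing about binding.

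The values are FPKM, fragment numbers divided by gene length and by library depth, as the authors deposited them. The listed length is taken to be a coding length, and whether reads outside it were counted is not given. Comparisons of level between genes are therefore approximate, and their intervals do not cover this. Depth was estimated roughly from the smallest values at 19000000 fragments in YTD, 19800000 in OTD, 24000000 in YAD and 25100000 in OAD. The 95% intervals given below come from the fragments this implies and cover counting error only. With 1 library per group there is no replicate check, no test between groups and no p-value, and each comparison is one of single libraries. A gene was counted as called when its difference of log2(FPKM + 1) was at least 1 in size. This scale understates the change of genes with low values, so ratios of FPKM are given beside it. Mitochondrially encoded genes held 44.7% of the summed FPKM in YTD and 52.7% in OTD, against 14.4% in YAD and 18.3% in OAD, and 20 skeletal muscle genes held 10.5%, 6.73%, 2.16% and 2.43% in the same order. Of 13 adipocyte markers, none was at 0 in any library, and Adipoq, the adiponectin gene, had 280.5 FPKM in YTD, 427 in OTD, 76.5 in YAD and 103 in OAD.

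In telogen the hair matrix factors were low. Their FPKM ran from 0.567 to 6.89 in YTD and from 0.19 to 4.6 in OTD. In anagen they ran from 31.9 to 231 in YAD and from 24.7 to 207 in OAD, so every anagen value lay above every telogen value. How many of all genes separate the 2 phases in both ages was not counted. Summed, the 9 genes had 23.5 FPKM in YTD, 11 in OTD, 702 in YAD and 634 in OAD. Every telogen value stood on at least 5.9 estimated fragments, above the floor of 3 fragments below which a fold would be a bound.

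**Figure D1:**
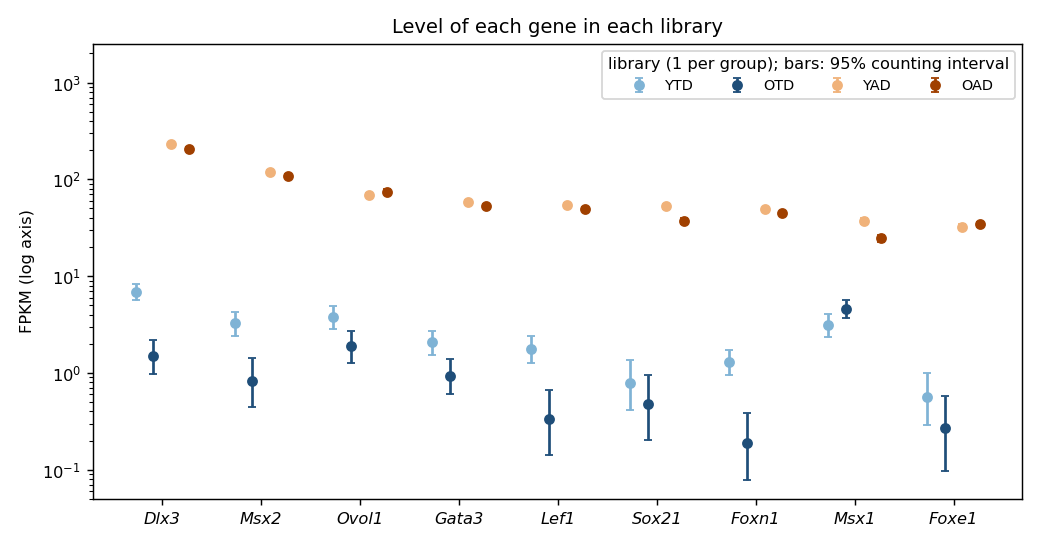
FPKM of the 9 hair matrix factor genes (log axis) in YTD, OTD, YAD and OAD, 1 point per library, with bars for the 95% counting interval. Both anagen points of each gene lie above both telogen points, from 24.7 to 231 FPKM against 0.19 to 6.89, and Msx1 is the only gene whose OTD point is above its YTD point.

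Dlx3 was the most abundant factor in anagen, with 231 FPKM in YAD and 207 in OAD, where it ranked 336 and 401 among all genes. In telogen it had 6.89 in YTD and 1.5 in OTD. Msx2 came next in anagen, at 120 in YAD and 109 in OAD, after 3.25 in YTD and 0.83 in OTD. These 2 homeobox genes stood apart from the rest of the list in both anagen libraries, since the ratio of Dlx3 to Msx2 was 1.93 in YAD (95% counting interval 1.83 to 2.03) and that of Msx2 to the next gene, Ovol1, was 1.74 (1.62 to 1.86). In OAD the same ratios were 1.9 (1.8 to 2) and 1.46 (1.37 to 1.56).

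Ovol1 had 68.9 FPKM in YAD and 74.7 in OAD, against 3.76 in YTD and 1.88 in OTD. Gata3 had 57.9 in YAD and 53.5 in OAD, against 2.06 in YTD and 0.935 in OTD. Lef1 had 54.4 in YAD and 49.1 in OAD, against 1.77 in YTD and 0.333 in OTD. In YAD, Gata3, Lef1 and Sox21 formed a group whose neighbours did not differ beyond counting error (ratio of Gata3 to Lef1 1.06, interval 0.99 to 1.14, and of Lef1 to Sox21 1.03, interval 0.95 to 1.12).

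Foxn1 had 48.9 FPKM in YAD and 44.4 in OAD, 1.3 in YTD and 0.19 in OTD. Sox21 had 52.7 in YAD and 37 in OAD, 0.79 in YTD and 0.477 in OTD. Foxe1 had 31.9 in YAD and 34.3 in OAD, 0.567 in YTD and 0.267 in OTD. Foxn1 was the lowest of the 9 in OTD, with Msx1 and Foxe1 below it in YAD and Sox21, Foxe1 and Msx1 below it in OAD, while Foxe1 was the lowest in YTD and in YAD.

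Msx1 had 37 FPKM in YAD and 24.7 in OAD, 3.11 in YTD and 4.6 in OTD. It was the highest of the 9 genes in OTD, 2.45 times the next gene, Ovol1 (1.6 to 3.86), and the lowest in OAD, where Foxe1, the gene above it, was 1.39 times as high (1.25 to 1.55). Below the top gene the order in telogen is not settled, because the counting interval of the ratio held 1 for 6 of the 8 pairs of neighbours in YTD and 7 of 8 in OTD, against 2 of 8 in YAD and 1 of 8 in OAD.

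The first question is how these genes follow the hair cycle. In young mice all 9 were called higher in YAD than YTD, where 16.1% of the 17622 genes above 0 in either library were called higher and 16.7% lower. By any amount 51.1% of all genes were higher and 48.8% lower. The members' differences of log2(FPKM + 1) ran from 3.21 for Msx1 to 4.91 for Sox21, with a median of 4.39, beside a median of 0.02 over all genes. As a ratio of FPKM the rise ran from 11.9-fold (Msx1, interval 9.05 to 16) to 66.7-fold (Sox21, 38 to 130), with a median of 33.5-fold. Foxn1 was 37.7-fold higher (28.3 to 51.3), Msx2 36.8-fold (27.8 to 49.7), Dlx3 33.5-fold (27.8 to 40.7) and Lef1 30.7-fold (22.4 to 43.1). The intervals of these 4 genes overlap, so their folds cannot be ordered. Ordered by the difference of log2(FPKM + 1), the 9 genes ranked between 128 and 438 from the top.

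In old mice all 9 were again called higher in OAD than OTD, where 16.1% of 17712 genes were and 15.6% were called lower. By any amount 50.9% of all genes were higher and 49% lower. The median difference was 4.82, beside 0.01 over all genes, and the range was wider, from 2.2 for Msx1 to 6.38 for Dlx3. The ratio was 234-fold for Foxn1 (113 to 582), 148-fold for Lef1 (74.7 to 343), 138-fold for Dlx3 (94.4 to 212) and 132-fold for Msx2 (76.8 to 247). Msx1 rose 5.36-fold (4.25 to 6.83). The high folds in old mice rest on telogen values of few fragments, an estimated 7.3 for Foxn1 and 7.9 for Lef1 in OTD, which is what widens their intervals.

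**Figure D2:**
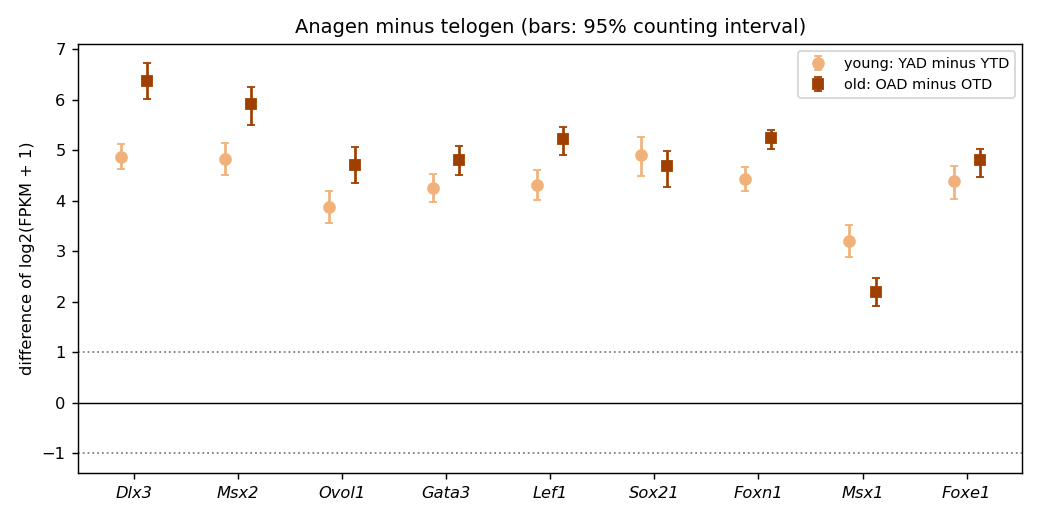
Anagen minus telogen difference of log2(FPKM + 1) for each gene in young (YAD minus YTD, circles) and old mice (OAD minus OTD, squares), with bars for the 95% counting interval and dotted lines at the threshold of 1. All 18 points are above the threshold, between 2.2 and 6.38, and the old point is above the young one for 7 genes and below it for Msx1 and Sox21.

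On the log2(FPKM + 1) scale the rise was larger in old than in young mice for 7 of the 9 genes, beside 52.5% of all genes, and smaller for 2, beside 47.4%. As ratios of FPKM it was larger for 8 of 9, with the fold in old mice 6.2 times that in young mice for Foxn1, the largest of the 9, and 1.16 times for Sox21. Dlx3 rose by 1.51 more on the log2(FPKM + 1) scale (1.07 to 1.92) and Msx2 by 1.08 more (0.57 to 1.56), and these were the 2 genes past a difference of 1 in this direction, where 4.02% of all genes were. Lef1 (0.91), Ovol1 (0.84) and Foxn1 (0.81) were below it. How many pass depends on the pseudocount, with 5 genes past 1 at a pseudocount of 0.1, Foxn1 at 2.13 first among them, and 7 at 0.01. Under TPM 1 gene passed. The share of all genes past 1 was not counted under these alternatives, so these counts cannot be read against it. Msx1 went the other way, with a rise that was smaller in old mice by 1.02 (difference -1.02, -1.44 to -0.59), where 2.2% of all genes passed 1 in size. For Foxe1 (0.41, -0.04 to 0.83) and Sox21 (-0.22, -0.76 to 0.29) the counting intervals held 0, and Sox21 turned to 0.12 at a pseudocount of 0.1. Scaled by the basal keratins Krt5 and Krt14, the difference turned to -0.19 for Gata3, -0.09 for Ovol1 and -0.11 for Foxe1, so its direction is not settled for these 3 genes. These differences combine the same 4 values as the age comparisons below and are not separate evidence of them.

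The cell types around the matrix moved with the cycle as well, and in bulk tissue fewer cells of a type and less RNA per cell cannot be told apart. The summed FPKM of 12 hair shaft keratins was 103 in YTD, 34.9 in OTD, 12002 in YAD and 11474 in OAD. That of 12 inner root sheath genes was 413, 254, 12873 and 19487, and that of 14 basal and outer root sheath keratinocyte genes 158, 124, 2195 and 3081, in the same order. Per FPKM of those 14 keratinocyte genes, 8 of the 9 hair matrix factors were higher in YAD than YTD, with a median ratio of 2.41, and 8 of 9 were higher in OAD than OTD, with a median ratio of 5.17. Msx1 was the exception in both, at 0.86 in young and 0.22 in old mice. Per FPKM of the hair shaft keratins, all 9 were lower in anagen at both ages, with median ratios of 0.29 and 0.39. Apart from Msx1, the hair matrix factors thus rose more than the keratinocyte genes in sum, and all 9 rose less than the shaft keratins in sum. Most genes of the fat and its stroma were lower in anagen. Of 13 adipocyte markers 11 were called lower in young and 10 in old anagen, and of 11 fibroblast and fat progenitor genes 8 and 10 were, while 1, Dpp4, was called higher at both ages (1.51 and 1.18). The part of each cell type in the rise was not tested.

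All 15 proliferation genes were called higher in anagen at both ages, with medians of 3.05 in young and 2.64 in old mice. Of 15 dermal papilla markers, 8 were called higher at each age, with medians of 1.39 in young and 1.07 in old mice. Tnmd was called lower at both ages, and Lepr and Prom1 were called lower in old mice only. Corin, among those called higher, had 0.151 FPKM in YTD, 0.092 in OTD, 7.58 in YAD and 6.75 in OAD. Lef1 is also known from the dermal papilla, and Lef1 and Gata3 from T cells. The T cell markers Cd3d, Cd3e and Cd3g were at most 0.435 FPKM in any library and at most 0.115 in anagen, where Cd3d and Cd3g were at 0 in YAD. Other genes of that list were higher in telogen. Cd247 had 1.58 FPKM in YTD, 2.53 in OTD, 0.03 in YAD and 0.363 in OAD, and was called lower in anagen at both ages. Il7r had 0.163, 2.73, 0.041 and 0.041 in the same order, and was called higher in OTD than YTD. Gata3 had 2.06 in YTD and 0.935 in OTD, and Lef1 1.77 and 0.333. The summed FPKM of 14 T cell and innate lymphoid genes was 33.3 in YTD and 52 in OTD, against 24.95 in YAD and 22.4 in OAD, most of it from Thy1, which fibroblasts also express (28.7, 42.6, 23.0 and 20.5 in the order YTD, OTD, YAD and OAD). Lck, a T cell kinase gene in the same list, had 0.193, 0.463, 1.38 and 0.843 in that order. The part of T cells in the Gata3 and Lef1 values was not tested.

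The second question is how these genes differ between old and young dWAT in telogen. Of the 9, 3 were called lower in OTD than YTD, namely Dlx3, Msx2 and Lef1 (Lef1 not under TPM, at -0.94), where 1.93% of 17230 genes were called lower, and none was called higher, where 1.67% were. By any amount, 8 of 9 were lower, beside 54.1% of all genes, and 1 was higher, beside 45.8%. The median difference was -0.73, beside -0.03 over all genes. Dlx3 changed by -1.66 (-2.07 to -1.23) and ranked 42 from the bottom of all genes. YTD held 4.61 times as much of it. Msx2 changed by -1.22 (-1.68 to -0.71), 3.92 times as much in YTD, and Lef1 by -1.06 (-1.43 to -0.63), 5.33 times as much in YTD.

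Foxn1 had the largest ratio of the 9, at 6.82 times as much in YTD as in OTD, but a difference of -0.95 (-1.23 to -0.63) on the log2(FPKM + 1) scale, short of the threshold because both values are low. Ovol1 (-0.73, -1.18 to -0.26) and Gata3 (-0.66, -1.05 to -0.26) were also lower, each by less than the threshold. Foxe1 (-0.31, -0.71 to 0.12) and Sox21 (-0.28, -0.78 to 0.25) had intervals that held 0, so a difference was not detectable at this depth. Msx1 was the only one with a higher value in OTD, by 0.45 (0.05 to 0.85), a ratio of 1.48 (1.04 to 2.13).

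**Figure D3:**
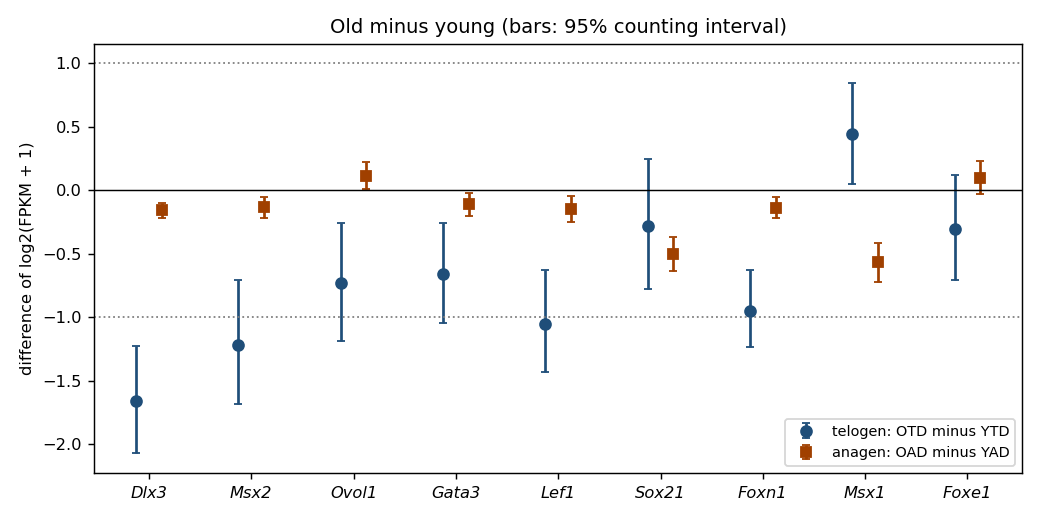
Old minus young difference of log2(FPKM + 1) for each gene in telogen (OTD minus YTD, circles) and anagen (OAD minus YAD, squares), with bars for the 95% counting interval and dotted lines at the threshold of 1 in size. Telogen points spread from -1.66 to 0.45 and anagen points from -0.57 to 0.11.

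Hair shaft keratins and inner root sheath genes were lower in OTD beside them. All 12 hair shaft keratins were lower, 7 of them called, with a median of -1.09. Krt83, a shaft cortex keratin, had 13.5 FPKM in YTD and 3.09 in OTD. All 12 inner root sheath genes were lower too, 1 of them called, with a median of -0.52. Of 14 basal and outer root sheath genes, 8 were lower and 6 higher, with a median of -0.27. Per FPKM of these keratinocyte genes, 8 of the 9 hair matrix factors were still lower in OTD, with a median ratio of 0.58, while per FPKM of the shaft keratins 5 were higher and 4 lower, with a median ratio of 1.34. Of 10 cuticle and cortex genes outside the keratins 9 were lower and 1 higher (median -0.41), with Msx2 and S100a3 called lower. Other lists that rose in anagen were mixed, with no gene called. Of dermal papilla markers 7 were lower and 8 higher (median 0.02), and of melanocyte markers 7 were lower and 5 higher (-0.04). Of proliferation genes 10 were lower and 5 higher (-0.18). Skeletal muscle genes had lower values in OTD in 20 of 20 cases, and their median was -0.66. The part of these tissues in the telogen difference was not tested.

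The third question is the same comparison in anagen. None of the 9 was called in either direction between OAD and YAD, where 0.727% of 17613 genes were called higher and 0.454% lower. The median difference was -0.14, beside 0 over all genes. As deposited, 7 of 9 were lower in OAD, beside 49.9% of all genes, and 2 were higher, beside 50% of all genes. Msx1 had the largest difference, -0.57 (-0.72 to -0.42), a ratio of 0.67 (0.6 to 0.74), and ranked 376 from the bottom. Sox21 followed with -0.5 (-0.63 to -0.37), a ratio of 0.7 (0.64 to 0.77), at rank 502. Dlx3 (-0.16), Lef1 (-0.15), Foxn1 (-0.14), Msx2 (-0.13) and Gata3 (-0.11) lay close together, with ratios from 0.9 to 0.93.

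Ovol1 was higher in OAD as deposited, by 0.11 (0.01 to 0.22), and lower in TPM, by -0.12. Foxe1 was higher by 0.1 (-0.03 to 0.23) as deposited and lower in TPM, by -0.13. TPM moved the median of all genes in this comparison to -0.16, and relative to that shift both were 0.05 and 0.04 higher. The direction of these 2 genes is therefore not settled. Msx1 and Sox21 were at -0.64 and -0.57 relative to the same shift.

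**Figure D4:**
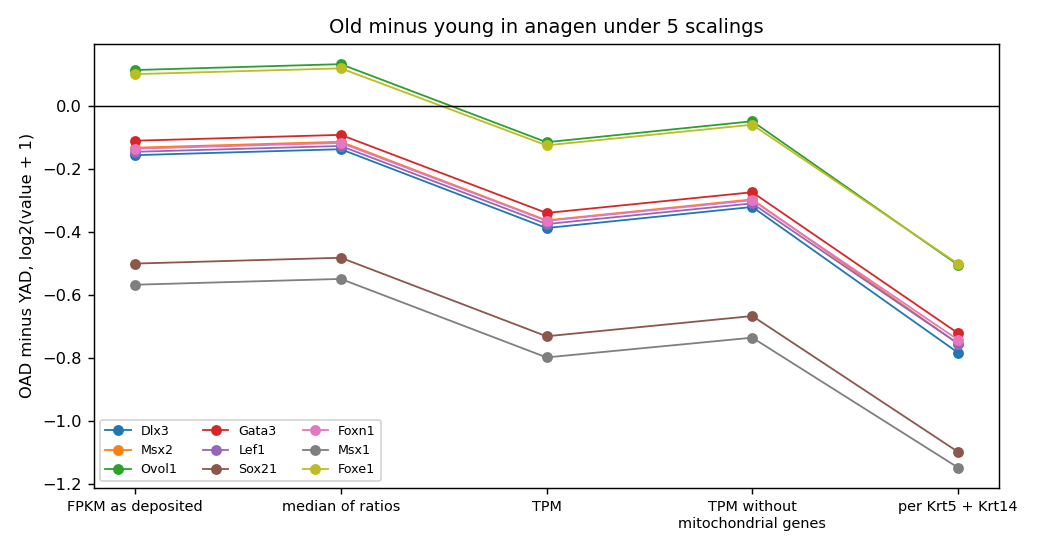
OAD minus YAD difference of log2(value + 1) for each gene under 5 scalings: FPKM as deposited, median of ratios, TPM, TPM without mitochondrial genes, and values per summed Krt5 and Krt14. Msx1 and Sox21 are lowest under each of the 5, and Ovol1 and Foxe1 are above 0 under the first 2 and below 0 under the other 3.

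Of the 14 keratinocyte genes 12 had a higher value in OAD (median 0.26), and 3 of them, Krt14, Krt6a and Krt6b, were called higher. Krt5 and Krt14, basal keratins of the epidermis and the outer root sheath, had 469 and 222 FPKM in YAD and 618 and 453 in OAD. Per FPKM of the 14 keratinocyte genes, all 9 hair matrix factors were lower in OAD, with a median ratio of 0.65 and ratios from 0.47 for Msx1 to 0.77 for Ovol1 and Foxe1. Per FPKM of the inner root sheath genes all 9 were also lower, with a median ratio of 0.6, and per FPKM of the shaft keratins 7 were lower and 2 higher, with a median of 0.95. The summed keratinocyte genes went from 2195 in YAD to 3081 in OAD and the summed inner root sheath genes from 12873 to 19487. The highest ratio of a member as deposited was 1.08. Both counts of 9 therefore follow from the rise of these sums and are not 9 separate results. The lists for the products of the matrix differed in direction. For the inner root sheath, 12 of 12 genes had a higher value in OAD (median 0.58), and Krt27, a keratin of that sheath, had 1773 FPKM in YAD and 3283 in OAD. Of the 12 shaft keratins 9 were lower, with a median of -0.25. Proliferation genes were lower in all 15 cases, with a median of -0.33, and melanocyte markers in all 12, with a median of -0.76. Among inner root sheath genes, shaft keratins, proliferation genes and melanocyte markers, Krt72 of the sheath was the 1 gene called higher and Pmel of melanocytes the 1 gene called lower. Outside the HF, all 13 adipocyte markers were higher in OAD (median 0.31), and of 20 skeletal muscle genes 16 were higher and 4 lower (0.30). Of 11 fibroblast and fat progenitor genes 9 were lower and 2 higher (-0.43), with Col1a1 and Col3a1 called lower. The part of these cell types in the anagen difference was not tested.

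**Figure D5:**
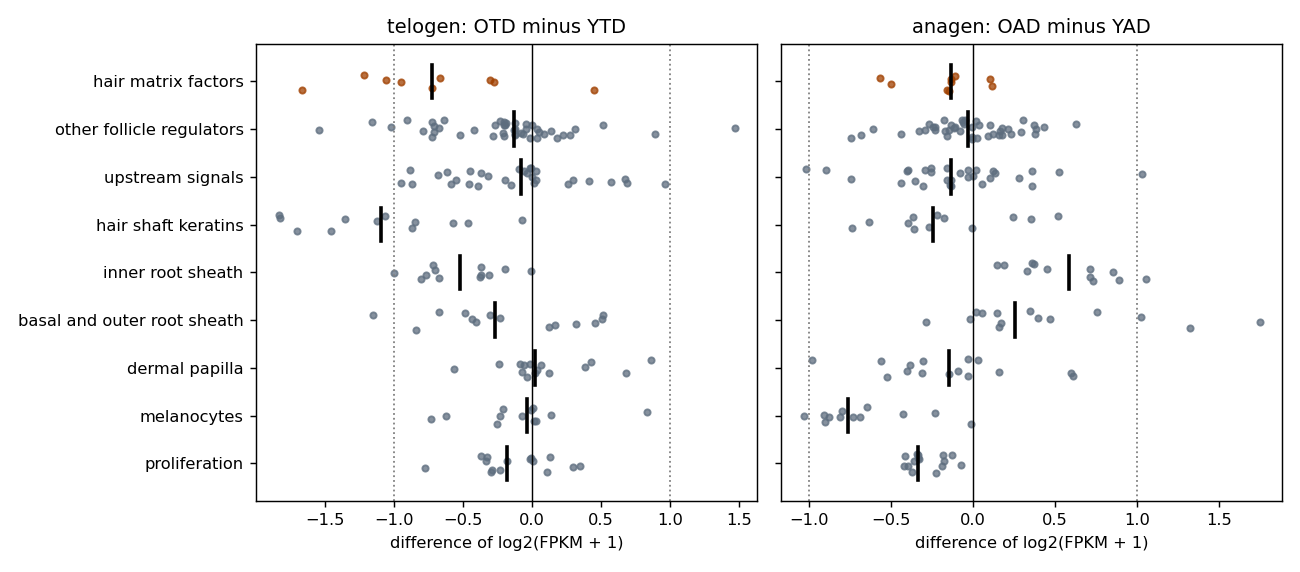
Old minus young difference of log2(FPKM + 1) in telogen (left) and anagen (right) for the hair matrix factors and 8 other gene lists, 1 point per gene, with black bars for list medians and dotted lines at 1 in size. In telogen the matrix factors (median -0.73) lie between the shaft keratins (-1.09) and the inner root sheath genes (-0.52), and in anagen at -0.14 they lie near the shaft keratins (-0.25) while the inner root sheath genes are above 0 (0.58).

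The other regulators of the HF gave a mixed picture. Of 46, 45 had a value above 0 in either library of the cycle comparisons. In young mice 35 were called higher and 4 lower in anagen, with a median of 2.03, and in old mice 32 were called higher and 3 lower, with a median of 2.08. Hoxc13, the homeobox activator of shaft keratin genes, had 4.6 FPKM in YTD, 2 in OTD, 144 in YAD and 122 in OAD, a course like that of the hair matrix factors. Cux1 had 32.4, 20, 81.9 and 87.9, and Klf4, a factor of epidermal differentiation, 21.4, 60.8, 57.8 and 65.4. Barx2, Nfatc1 and Sox18 were among the genes called lower in young anagen, and Nfatc1, a factor of resting HF stem cells, and Sox18, a factor of vessels, were also called lower in old anagen. In telogen, Barx2, Hr and Lhx2 were called lower in OTD and Klf4 higher, and the list's median was -0.13. In anagen none of 44 was called between ages, with a median of -0.03. The names Barx2, Nfatc1, Sox18, Hr and Lhx2 were singled out after their values were seen.

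Relatives of Dlx3 in this list, also picked after the values were seen, were also higher in anagen, at lower levels. Dlx2 had 0.762 FPKM in YTD, 0.066 in OTD, 17.8 in YAD and 20.2 in OAD. Dlx4, which neighbours Dlx3 on chromosome 11, had 0.118, 0.156, 9.16 and 7.57, and Dlx1 had 0.115, 0.084, 4.82 and 6.18. The lowest value of each of these 3 genes stood on fewer than 3 estimated fragments, so no fold is given. Tcf7, a relative of Lef1, had 0.908, 1.16, 24 and 21.8, while the relatives Tcf7l1 (10.4, 10.5, 6.83 and 7.03) and Tcf7l2 (4.93, 4.44, 5.54 and 5.51) were not called in either direction. All of the Dlx relatives and Tcf7 were highest in anagen, and all were below Dlx3 or Lef1 there.

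Of 30 upstream signals of the matrix, 23 were called higher in anagen at each age and 1, Fgf7, was called lower in old mice (-1.59), with medians of 1.94 in young and 2 in old mice. Wnt11 had 9.26 FPKM in YTD, 6.95 in OTD, 63.1 in YAD and 61.8 in OAD. Notch1, the receptor whose signal shapes shaft and sheath fates, had 6.09, 6.1, 54.5 and 44, and its ligand Jag2 had 16, 9.62, 39.2 and 35.7. Between ages none of the 30 was called in telogen, with a median of -0.08. In anagen 1 was called higher, Fgf5, a growth factor that ends anagen, and 1 lower, Fgf7, a growth factor of keratinocytes, with a median of -0.13. Beside the shaft keratins, 10 other cuticle and cortex genes were listed, Msx2 among them. All 10 were called higher in young anagen and 9 in old, where Selenbp1 did not rise (-0.12). S100a3, a cuticle protein, had 136 FPKM in YTD, 43.7 in OTD, 4352 in YAD and 4415 in OAD.

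The 9 genes did not share one profile. Over the 4 libraries, each gene's log2(FPKM + 1) was centred on its own mean and the distance between genes taken. Foxn1 and Lef1 were the closest pair, at 0.1, and Msx2 and Dlx3 were at 0.41. Msx1 was at least 1.86 from every other member, and its relative Msx2 was at 2.93. With 4 libraries such distances mostly reflect the gap between telogen and anagen, and they say nothing of shared control. Among 13559 other genes with a symbol and at least 1 FPKM in a library, Tfap2a lay nearest to the mean profile of the 9, at 0.09, with 1.96 FPKM in YTD, 0.792 in OTD, 57.7 in YAD and 55.5 in OAD. Csdc2 (0.11), Alox8 (0.12), Esrp2 (0.14) and Bnipl (0.15) followed, and Calml3, Sytl1, Nectin4 and Tagln3 were also among the 10 nearest. Tfap2a encodes the keratinocyte factor AP-2alpha and Esrp2 an epithelial splicing factor.

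Taken one at a time, Lef1 was nearest to Rab25 (0.07), Nectin4 and Lad1, and the same 3 genes were nearest to Foxn1. Dlx3 was nearest to S100a3 (0.22), Dapl1 and Gm19402, and Msx2 to Ly6g6d (0.25), Calhm4 and the cuticle keratin gene Krt32. Gata3 was nearest to Csdc2, Sytl1 and Alox8, Ovol1 to Fam83h, Gm14137 and Ggt1, and Foxe1 to Tgm1, a transglutaminase of keratinocytes, Capns2 and Fgf22. Sox21 was nearest to Krtap24-1, Elovl3, a fatty acid elongase of the sebaceous gland and HF, and Fbp1. Msx1 was nearest to Rnaset2b (0.11), Ydjc and Epha2. Epha2 had 3.04 FPKM in YTD, 5.61 in OTD, 38 in YAD and 28.9 in OAD, higher in OTD than YTD and lower in OAD than YAD, as Msx1 was.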

How the data were processed

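RNA of dWAT was sequenced in 4 libraries, 1 each for YTD, OTD, YAD and OAD, on an Illumina HiSeq platform. Per library, the authors deposited a table of FPKM over 22913 genes, with position and a listed length that is a multiple of 3 for 97% of genes, so it is taken to be a coding length. The submitters' processing notes name bcl2fastq, TopHat2 and GRCm38. The counting tool, annotation and scaling between libraries are not given in the sources used here. Of the identifiers, 21750 were matched to a symbol. Gene positions were compared with GENCODE vM21 on the same build.

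FPKM were used as deposited. Changes are differences of log2(FPKM + 1), called at 1 or more in size, over genes above 0 in either library compared. Depth was estimated from features of 3000 to 9000 bases, whose smallest values of FPKM times length gather at 1 fragment, searched between 15000000 and 35000000 fragments, a range set after the values were seen. Intervals (95%) are exact Clopper-Pearson for ratios and combined Poisson limits for log2 differences. They treat fragments as independent, and the listed length as the effective length. Depth limits telogen values most.

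The members and lists were chosen with earlier results of these data known. Genes named by rule are the 9 members, the 3 most abundant genes of a list, and genes nearest in profile (10 for the mean, 3 for each member). Corin, Lck, Cd3d, Cd3e, Cd3g and the relatives of Dlx3 and Lef1 were named outside this rule. So were genes named because they were called, such as Dpp4, Fgf5 and Fgf7. Of the genes listed, 5 (Krt85, Flg, Trbc2, Trac and Trdc) were not analysed here, and single values of a few other genes are not reported here. Alternatives were pseudocounts of 0.1 and 0.01, a filter at 1 FPKM, the median of ratios over genes above 1 FPKM in every library, TPM with and without mitochondrial, muscle and hair genes, scaling by keratinocyte genes, thresholds of 1.5 and 0.58, and a condition on the counting interval. The steps were tested on simulated libraries. Python 3.11.15, numpy 2.4.6, pandas 2.3.3, scipy 1.17.1 and matplotlib 3.10.9 were used.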

Additional observations from a re-analysis of the deposited data

Results flagged for a closer look

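Msx1 and Ovol1 differed between old and young in opposite directions in telogen and anagen, each with counting intervals that leave out 0. Msx1 was higher in OTD than YTD by 0.45 and lower in OAD than YAD (difference -0.57) on the log2(FPKM + 1) scale. Ovol1 was lower in OTD than YTD (difference -0.73) and higher in OAD than YAD by 0.11 as deposited, though lower in TPM (-0.12). Each direction rests on 1 library per group. The difference between phases is the same quantity as the old minus young difference of the rise given above. It was -1.02 (-1.44 to -0.59) for Msx1 and 0.84 (0.36 to 1.31) for Ovol1, whose direction is not settled. These intervals cover counting error only, and the difference was not tested between groups.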

How the results depend on the processing

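The count of 9 genes called higher in anagen held at both ages under each pseudocount, filter, library scaling (median of ratios and TPM) and threshold tried. Scaled by Krt5 and Krt14, 7 were called higher at each age, 1 (Msx1) was called lower in OAD than OTD at -2.00, 1 (Msx1) was called higher in OTD than YTD, and 2 (Msx1 and Sox21) were called lower in OAD than YAD. Scaling by all 14 keratinocyte genes was an alternative chosen after seeing the data. Under it, 6 genes were called higher in YAD than YTD and 7 in OAD than OTD. Msx1 changed by -0.21 in young and -2.12 in old mice between telogen and anagen. This scaling left 1 gene called lower in OAD than OTD and 1 lower in OAD than YAD. The 3 genes called lower in OTD than YTD became 5 with a pseudocount of 0.1, 6 with 0.01, 1 at a threshold of 1.5 and 6 at 0.58. It was 2 under TPM, where Lef1 fell short at -0.94, and 4 under TPM without mitochondrial genes and under both keratinocyte scalings. The share of all genes called was counted only for the values as deposited, at a pseudocount of 1 and a threshold of 1. Counts under the alternatives therefore have no share of all genes to be read against. The genes whose rise was larger in old mice by at least 1 numbered 2 as reported and from 1 to 7 over the alternatives. The higher counts at small pseudocounts follow from the low FPKM of these genes, which a pseudocount of 1 compresses. Of all counts of called genes, 9 moved past 1.5 times the count above and 87 did not. TPM moved the median of all genes from 0.02 to 0.45 in YAD against YTD and from 0.01 to 0.32 in OAD against OTD, and the median of the 9 genes relative to that shift was 4.58 and 4.94. No replicate could be left out with 1 library per group. No paired analysis was possible because each group holds 1 library. Depth limits the telogen values of Foxn1, Lef1, Foxe1 and Sox21 in OTD, each an estimated 5.9 to 7.9 fragments.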
